A study of Mus musculus with 15 samples.

Results

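The unfolded protein response and the integrated stress response were followed through 10 genes in 15 WEHI-164 tumors. The genes were taken by name, by a rule that uses no measured value, but with earlier results of these data known. Eif2ak3, Atf6 and Xbp1 came from the sensing side, with Hspa5 as the chaperone of the endoplasmic reticulum (ER). Atf4 and Ddit3 were taken as transcription factors, Trib3, Chac1 and Asns as their targets, and Ppp1r15a as the feedback regulator. All 10 genes were present in the deposited table of 32543 entries with gene names and all 10 passed the filter on low counts that left 15494 genes for testing. WEHI-164 is a mouse fibrosarcoma line, here grown subcutaneously in wild-type female BALB/c mice. Tumors of day 0 were untreated, and tumors of days 1, 3, 5 and 7 received intratumoral poly(I:C), which mimics double-stranded RNA and is sensed by Toll-like receptor 3. Each day had 3 tumors. The labels give 1 µg in 25 µL daily for 6 planned doses, but the study's supplement also states a larger amount for this course, so the dose is uncertain. No untreated tumors of later days were analysed here, so treatment and time since day 0 cannot be told apart. Per the study's legends the tumors of a day came from separate mice, which the labels do not state.

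The ER senses misfolded proteins through several membrane proteins. PERK (Eif2ak3) phosphorylates the translation factor eIF2α, which slows protein synthesis while favouring translation of ATF4. ATF4 and its target CHOP (Ddit3) switch on genes of amino acid supply, redox balance and cell death. IRE1 splices the Xbp1 mRNA, and ATF6 is cut free of the membrane, and both routes raise chaperones such as BiP (Hspa5). Other kinases converge on eIF2α, among them PKR (Eif2ak2), which binds double-stranded RNA and is itself an interferon-induced gene. RNA levels in whole tumors measure none of the phosphorylation, cleavage, splicing or translation steps, and fewer cells of a type cannot be told apart from less RNA per cell.

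The letters through which these factors are known to act were searched in the promoter windows of RefSeq (GRCm38.p6, 250 bases before to 50 bases after each start, both strands). A window was matched for 9 of the 10 genes, and Atf6 was not matched. The core of the C/EBP-ATF response element (CARE), TGATGNAA, through which ATF4 binds DNA, was found in the windows of Trib3, Chac1 and Asns. The ER stress response element (ERSE), CCAAT and CCACG with 9 bases between them, through which ATF6 acts, was found in the window of Hspa5. These 4 sites are shown because they lie at the starts of the ATF4 targets and the ATF6 target described below, with the motif in capitals and each sequence 5′ to 3′ in the direction of transcription.
Trib3 (chr2:152344028-152344057, minus strand, CARE core read on the opposite strand, first base at +15 from the start): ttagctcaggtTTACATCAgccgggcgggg
Chac1 (chr2:119351038-119351067, plus strand, CARE core read on the opposite strand, first base at -193): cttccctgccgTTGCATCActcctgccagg
Asns (chr6:7693214-7693243, minus strand, CARE core, first base at -23): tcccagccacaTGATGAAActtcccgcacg
Hspa5 (chr2:34772020-34772049, plus strand, ERSE, first base at -65): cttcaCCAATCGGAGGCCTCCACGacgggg
Among all 32851 windows, 3.97% held the CARE core and 0.119% held the ERSE. The unfolded protein response element, TGACGTGG, was in 0.676% of windows, and the ERSE-II, ATTGG and CCACG with 1 base between them, was in 0.0365%; neither was in a window of the 9 genes. The motifs overlapped in no printed site. A match of letters is a description and not evidence of binding.

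Libraries held 23.7 to 31.9 mega-counts (M) of estimated counts. The 5 markers of fibroblasts or fibrosarcoma background summed to 6248 CPM or more in each tumor (CPM, counts relative to a library of a fixed size). Whether their RNA came from cells of the line or of the host was not tested. Day 3 replicate 1 stood apart from the other tumors. On the first principal component, with 57.4% of the variance of log2 CPM, it lay at 144 and the other 14 tumors between -77.0 and 45.1. It also had the highest summed marker levels of several cell types. The 6 skeletal muscle markers summed to 2230 CPM in that tumor and to 2.63 to 141 CPM in the others. For the 6 macrophage markers the sum was 5102 CPM against 841 to 2297 CPM, and for the 5 fibroblast markers 27547 CPM against 6248 to 12390 CPM. The 6 T cell markers summed to 214 CPM against 9.82 to 125 CPM, the 6 adipocyte markers to 265 CPM against 3.47 to 58.4 CPM, and the 5 endothelial markers to 487 CPM against 74.7 to 272 CPM. B cell and plasma cell markers, where Xbp1 is usually high, were lowest there at 127 CPM against 146 to 198 CPM. Erythroid markers (24.5 CPM against 8.16 to 199 CPM) and keratinocyte markers (1.97 CPM against 2.17 to 25.2 CPM, with Krt1 at 3 counts or fewer in all tumors) were not raised in it. The part of these cells in the results below was not tested, and the values that rest on this tumor are given with and without it.

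No gene of the response passed the test on any day. With edgeR's quasi-likelihood test and Benjamini-Hochberg adjustment over all genes, 0 of 10 were called in each of the comparisons of days 1, 3, 5 and 7 with day 0, of day 7 with day 3, and in the joint test of the 4 treated days. The background was equally empty, since 0.0% of the 15494 genes was called in each of these. At an unadjusted p under 0.05, edgeR counted 0, 2, 0 and 0 of the 10 genes on days 1, 3, 5 and 7, against 3.16%, 30.0%, 4.8% and 2.07% of all genes. For day 7 against day 3 the count was 4 of 10 against 35.5%, and in the joint test 0 of 10 against 16.2%. With day 3 replicate 1 left out, the count was 0 of 10 in each of these comparisons, against 13.1% of all genes on day 3, 15.7% for day 7 against day 3 and 7.18% jointly. DESeq2 called 0 of the 10 genes at an adjusted p under 0.05 in every comparison, while it called 0.258%, 12.9%, 0.071% and 0.0323% of all genes on days 1, 3, 5 and 7, 21.0% for day 7 against day 3 and 7.59% jointly. The counts over all genes rested in part on single tumors. Without day 3 replicate 1, DESeq2 called 86 genes on day 3 in place of 2003 and 90 for day 7 against day 3 in place of 3260. With edgeR, leaving out day 3 replicate 3 gave 2091 calls for day 7 against day 3 and 2 for day 3, and leaving out day 1 replicate 3 gave 58 and 61, and leaving out day 7 replicate 2 gave 1 for day 7 against day 3, again with none of the 10 genes among them.

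The median log2 fold change of the 10 genes against day 0 was 0.06, -0.38, -0.12 and 0.08 for days 1, 3, 5 and 7, beside -0.00, -0.02, 0.00 and -0.02 over all genes. On day 3, 8 of the 10 genes were lower than on day 0 and 2 were higher, Eif2ak3 and Xbp1. Without day 3 replicate 1 the median on day 3 was -0.11, with 9 lower and 1 higher. Between day 3 and day 7 the median was 0.43, with 8 genes higher on day 7, and 0.25 with 9 higher without that tumor; this comparison and that of day 3 with day 0 share the day 3 tumors. In 4 of 10 genes, Atf4, Atf6, Trib3 and Ppp1r15a, all 3 tumors of day 3 were below all 3 of day 0, a pattern that 19.0% of all genes showed. No gene of the 10 separated the same way on day 5, against 10.8% of all genes, and 3 of 10, Atf4, Trib3 and Ppp1r15a, were higher in all 3 tumors of day 7 than in all 3 of day 3, against 14.6%. The same 4 and 3 genes separated without day 3 replicate 1, against 22.9% and 17.4% of all genes. For Atf4 the nearest tumors of those days both round to 389.8 CPM. Standard errors of the log2 fold changes ran from 0.11 for Xbp1 to 0.43 for Chac1, and a fold change of that size could not be told from the spread between tumors. Without day 3 replicate 1, the smallest edgeR adjusted p of the 10 genes was 0.432 on day 3 and 0.325 for day 7 against day 3.

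**Figure D1:**
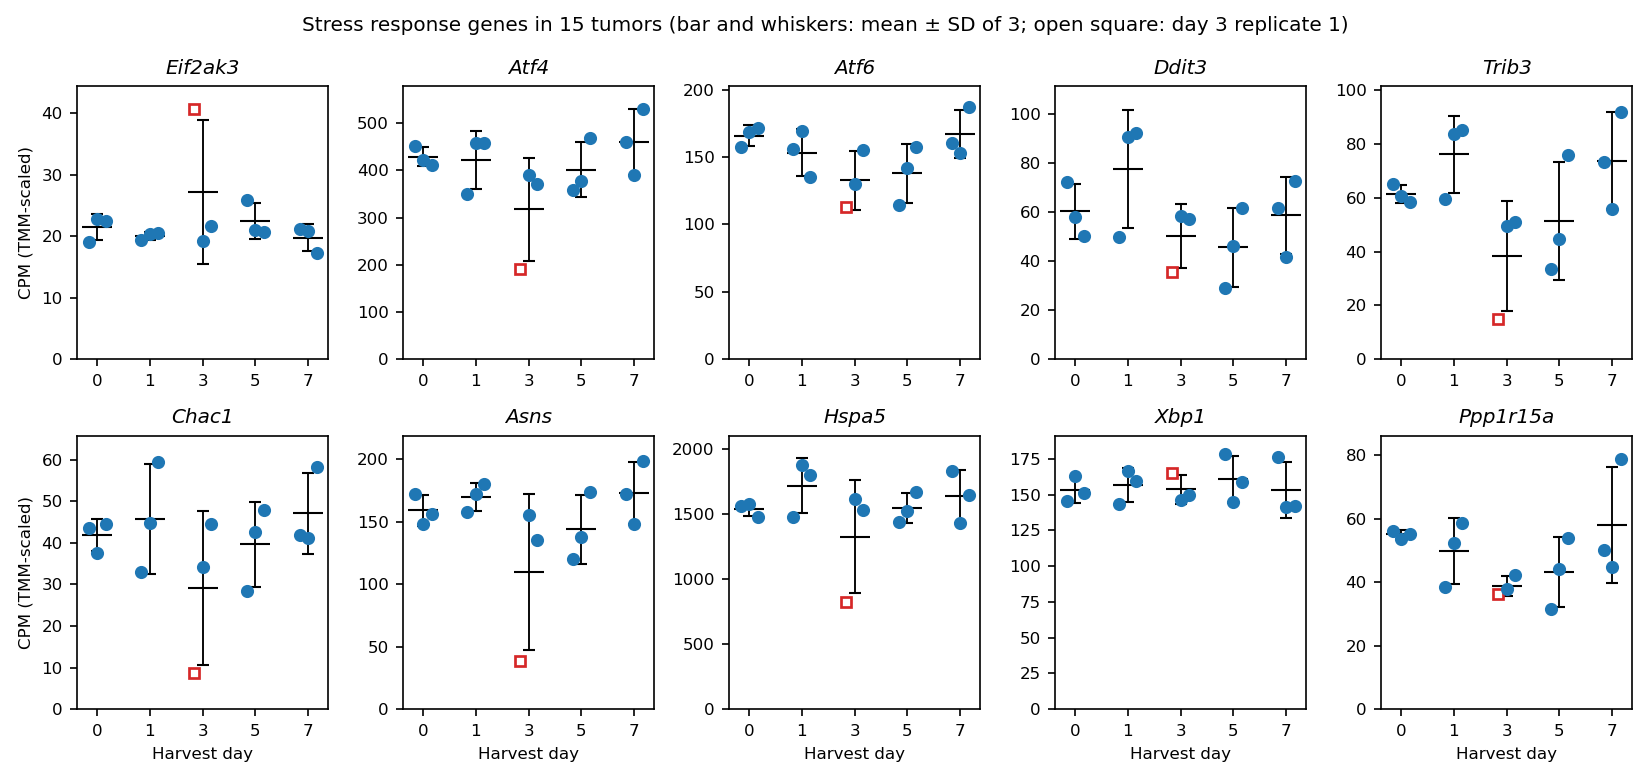
CPM with TMM-scaled library sizes (vertical axis, from 0, a separate scale for each gene) of the 10 genes by harvest day, with a point for each tumor and bars for mean ± SD of 3 tumors. The open square, day 3 replicate 1, is the lowest of 15 tumors for 6 genes and the highest for Eif2ak3.

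Eif2ak3 (chr6:70844515-70905245, plus strand) encodes PERK, the kinase that starts the eIF2α branch. Its levels were 19.0, 22.9 and 22.5 CPM on day 0, 19.3, 20.3 and 20.5 CPM on day 1, and 40.6, 19.3 and 21.6 CPM on day 3. They were 25.9, 21.0 and 20.7 CPM on day 5 and 21.1, 20.9 and 17.3 CPM on day 7. A single tumor, day 3 replicate 1, was high, and day 3, at 27.2 ± 11.7 CPM (mean ± SD, n = 3), overlapped each other day. On day 3 Eif2ak3 was at a log2 fold change of 0.34 (SE 0.23, edgeR adjusted p = 0.295) with this tumor and -0.07 without it.

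Atf6 (chr1:170704674-170867771, minus strand) encodes the sensor whose cut fragment enters the nucleus. Its levels were 157.3, 168.6 and 171.7 CPM on day 0 and 112.6, 129.8 and 155.4 CPM on day 3. All tumors of day 3 lay below those of day 0, with the highest of day 3 only slightly under the lowest of day 0. This gave a log2 fold change of -0.32 (SE 0.15, edgeR unadjusted p = 0.0452, adjusted p = 0.160), and -0.22 without day 3 replicate 1. Day 5, at 114.3, 142.0 and 157.5 CPM, overlapped day 0 by a single tumor, and day 7 was at 167 ± 18.0 CPM (SD, n = 3) beside 166 ± 7.60 CPM on day 0. Its range from the lowest to the highest tumor was 1.66-fold, and 1.64-fold without day 3 replicate 1.

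Xbp1 (chr11:5520659-5525893, plus strand) encodes the factor whose mRNA is spliced by IRE1; spliced and unspliced forms were not separated in the table. It varied least of the 10 genes, from 141.4 to 178.0 CPM across all tumors, a 1.26-fold range. Day means were 153 ± 8.84, 156 ± 11.8, 154 ± 10.3, 161 ± 16.6 and 153 ± 19.8 CPM in order of day (SD, n = 3). Its log2 fold changes against day 0 lay between -0.00 and 0.07, and the sign on days 3 and 7 turned with the filter or the scaling. Its SD within days, 0.128 on the log2 scale, was below the median of all genes, 0.269.

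Hspa5 (chr2:34771970-34777547, plus strand) encodes BiP, the main chaperone of the ER lumen, and carries the ERSE shown above. Its levels were 1562, 1577 and 1476 CPM on day 0, 1480, 1877 and 1798 CPM on day 1 and 825.5, 1616 and 1534 CPM on day 3. On days 5 and 7 they were 1443, 1525 and 1669 CPM and 1833, 1429 and 1650.3 CPM. Day 3 replicate 1 was far below the next lowest tumor, day 7 replicate 2, and the groups overlapped on all days. The log2 fold change on day 3 was -0.22 (SE 0.21, edgeR adjusted p = 0.454) with this tumor and 0.04 without it, so its direction turned.

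Atf4 (chr15:80255184-80257541, plus strand) encodes the transcription factor at the centre of the integrated stress response, which is controlled mainly at translation. Its levels were 451.0, 422.6 and 411.8 CPM on day 0, 350.9, 457.8 and 458.2 CPM on day 1 and 191.2, 389.8 and 371.2 CPM on day 3. On day 5 they were 358.9, 377.3 and 467.6 CPM and on day 7 459.3, 389.8 and 529.0 CPM. The day 3 tumors lay below those of day 0 with and without replicate 1. Day 3 had a log2 fold change of -0.43 (SE 0.23, edgeR unadjusted p = 0.0803, adjusted p = 0.204), and -0.17 without that tumor. From day 3 to day 7 it was 0.53 (unadjusted p = 0.0364, adjusted p = 0.122), and 0.28 without it.

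Ddit3 (chr10:127290774-127296288, plus strand) encodes CHOP, a transcription factor tied to cell death in lasting stress. Its levels were 72.6, 58.2 and 50.5 CPM on day 0, 50.1, 90.8 and 92.3 CPM on day 1, 35.4, 58.4 and 57.2 CPM on day 3, 29.1, 46.2 and 61.6 CPM on day 5 and 61.7, 41.7 and 72.9 CPM on day 7. Both high tumors of day 1 were above all other tumors of the course, while the third tumor of that day was just below the lowest untreated one. The log2 fold change on day 1 was 0.36 and the largest of the 10 genes that day, but its edgeR adjusted p was 1. Unlike most of the 10 genes, its lowest tumor was day 5 replicate 1, and its range of 3.17-fold did not depend on day 3 replicate 1. Its annotated end overlaps the neighbouring gene Mars on the opposite strand by 68 bases, and the strand used in counting was not stated.

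Trib3 (chr2:152337422-152344032, minus strand) encodes a pseudokinase that restrains ATF4 and CHOP and is itself their target. Its levels were 65.2, 60.5 and 58.5 CPM on day 0, 59.7, 83.6 and 85.1 CPM on day 1 and 14.98, 49.3 and 50.8 CPM on day 3. They were 33.7, 44.6 and 76.0 CPM on day 5 and 73.4, 55.9 and 91.9 CPM on day 7. Day 3 was below day 0 and below day 7 with no overlap, also in the 2 tumors left without replicate 1. On day 3 Trib3 was at a log2 fold change of -0.68 (SE 0.39, edgeR adjusted p = 0.239), the most negative of the 10 genes, and -0.29 without that tumor, when Ppp1r15a was further below. From day 3 to day 7 it was 0.94 (unadjusted p = 0.0337, adjusted p = 0.118) and 0.57 without it. DESeq2 gave this contrast an adjusted p of 0.0625, the lowest for any of the 10 genes with all tumors, and 0.243 without day 3 replicate 1.

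Chac1 (chr2:119351229-119354381, plus strand) encodes an enzyme that degrades glutathione. Its levels were 43.5, 37.5 and 44.5 CPM on day 0, 33.1, 44.7 and 59.5 CPM on day 1 and 8.7, 34.2 and 44.5 CPM on day 3. They were 28.3, 42.6 and 48.0 CPM on day 5 and 41.9, 41.2 and 58.3 CPM on day 7. Its range over all tumors, 6.84-fold, was the widest of the 10 genes, and became 2.10-fold without day 3 replicate 1, below those of Ddit3, Trib3 and Ppp1r15a. With this tumor, day 3 had a log2 fold change of -0.52 (SE 0.43, edgeR adjusted p = 0.386), and without it -0.08.

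Asns (chr6:7675169-7693254, minus strand) encodes asparagine synthetase, the classical amino acid response gene. Its levels were 172.3, 147.9 and 156.4 CPM on day 0 and 38.6, 154.9 and 135.2 CPM on day 3. Day 1 held 157.5, 172.2 and 179.8 CPM, day 5 119.8, 137.9 and 173.9 CPM and day 7 172.3, 147.9 and 198.2 CPM. Of the other day 3 tumors, replicate 2 lay within the untreated range and replicate 3 below it. Its log2 fold change was -0.54 on day 3 (SE 0.36, edgeR adjusted p = 0.292), and -0.13 without replicate 1.

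Ppp1r15a (chr7:45522916-45526268, minus strand) encodes GADD34, which brings a phosphatase to eIF2α and so restores translation. Its levels were 56.3, 53.7 and 55.2 CPM on day 0, 38.5, 52.3 and 58.8 CPM on day 1 and 36.2, 38.0 and 42.3 CPM on day 3. They were 31.7, 44.0 and 53.8 CPM on day 5 and 50.1, 44.9 and 78.9 CPM on day 7. In contrast to the targets above, the 3 tumors of day 3 were close to each other (38.8 ± 3.13 CPM, SD, n = 3), and replicate 1 did not stand apart. The log2 fold change on day 3 was -0.50 (SE 0.23, edgeR unadjusted p = 0.0453, adjusted p = 0.160), and -0.45 without replicate 1, where the adjusted p was 0.432. From day 3 to day 7 it was 0.58 (unadjusted p = 0.0248, adjusted p = 0.106), and 0.54 without that tumor. It overlaps Tulp2 on the opposite strand by 717 bases, and Tulp2 did not pass the filter on low counts.

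**Figure D2:**
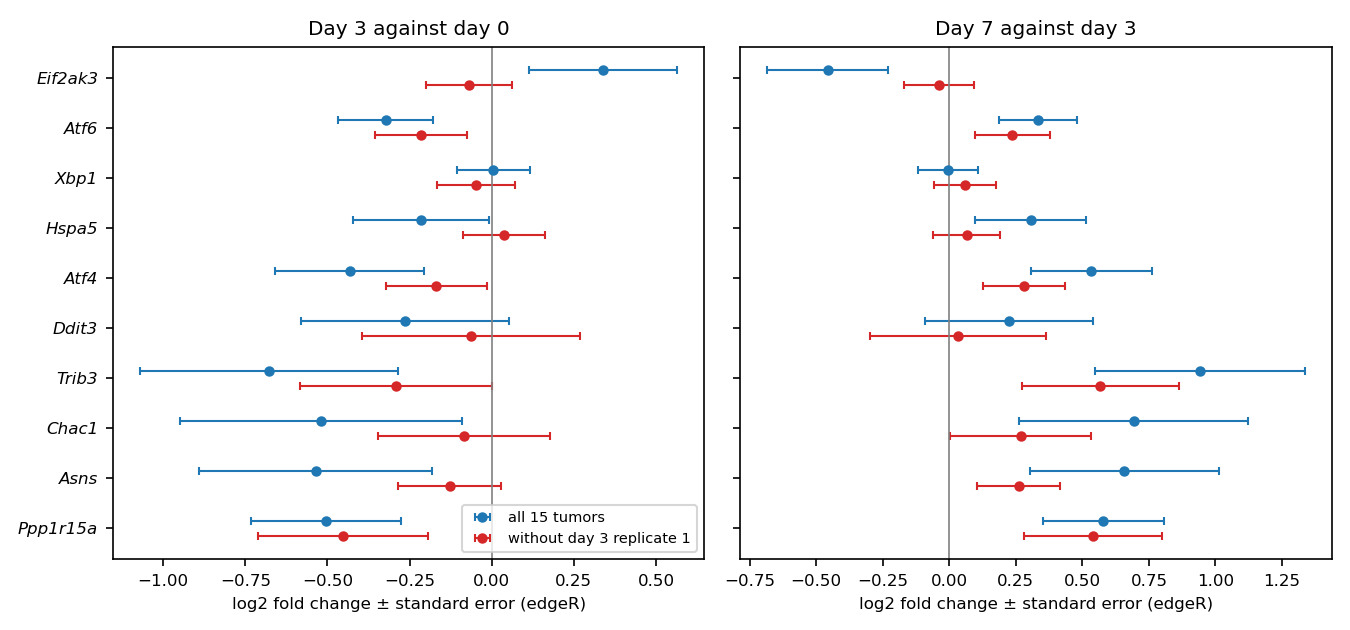
Log2 fold change ± standard error from edgeR (horizontal axis) for day 3 against day 0 and day 7 against day 3, with all 15 tumors and without day 3 replicate 1. Ppp1r15a moves least among the genes lower on day 3, from -0.50 to -0.45, while Asns moves from -0.54 to -0.13 and Eif2ak3 from 0.34 to -0.07.

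In the order of the day means, day 3 was lowest for 7 of the 10 genes (Atf4, Atf6, Trib3, Chac1, Asns, Hspa5 and Ppp1r15a), day 5 for Ddit3 and day 7 for Eif2ak3 and Xbp1. When day 3 replicate 1 was left out, day 3 was lowest for 5, Atf4, Trib3, Chac1, Xbp1 and Ppp1r15a, day 5 for Atf6, Ddit3 and Asns, and day 0 for Hspa5. Day 7 was highest for the same 5 genes with and without that tumor, Atf4, Atf6, Chac1, Asns and Ppp1r15a. In the order over all tumors, days next to each other in this order overlapped for each of the 10 genes. Day 3 replicate 1 held the lowest value of 6 genes, Atf4, Atf6, Trib3, Chac1, Asns and Hspa5, and day 7 replicate 3 the highest of 5, Atf4, Atf6, Trib3, Asns and Ppp1r15a, as well as the lowest Eif2ak3. Day 5 replicate 1 held the lowest Ddit3 and Ppp1r15a and the highest Xbp1.

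The marker sums also differed in these tumors. Day 7 replicate 3 had the lowest sums of macrophage (841 CPM), T cell (9.82 CPM) and endothelial markers (74.7 CPM) of all tumors. The same held for its muscle (2.63 CPM), adipocyte (3.47 CPM) and fibroblast sums (6248 CPM). It thus lay at the other end from day 3 replicate 1 for these lists, but had the highest erythroid sum (199 CPM). Day 5 replicate 1 had the second highest T cell sum, 125 CPM, and the second highest fibroblast and endothelial sums, 12390 and 272 CPM, with a macrophage sum of 1917 CPM and a muscle sum of 2.89 CPM, the second lowest. The part of these cells in the levels of the 10 genes was not tested.

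Relative to the day 0 mean, day 3 replicate 1 held 0.208 of Chac1, 0.243 of Asns, 0.244 of Trib3 and 0.446 of Atf4. It held 0.537 of Hspa5, 0.587 of Ddit3, 0.657 of Ppp1r15a and 0.679 of Atf6, but 1.08 of Xbp1 and 1.89 of Eif2ak3. Chac1, Asns and Trib3 were thus the furthest below day 0 of the 10 genes in that tumor, and a part of the CARE core in this was not tested. Of all genes, 13.9% were lower there than on day 0 by more than 1 on the log2 scale, and in the mean of the other day 3 tumors 1.21% were.

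**Figure D3:**
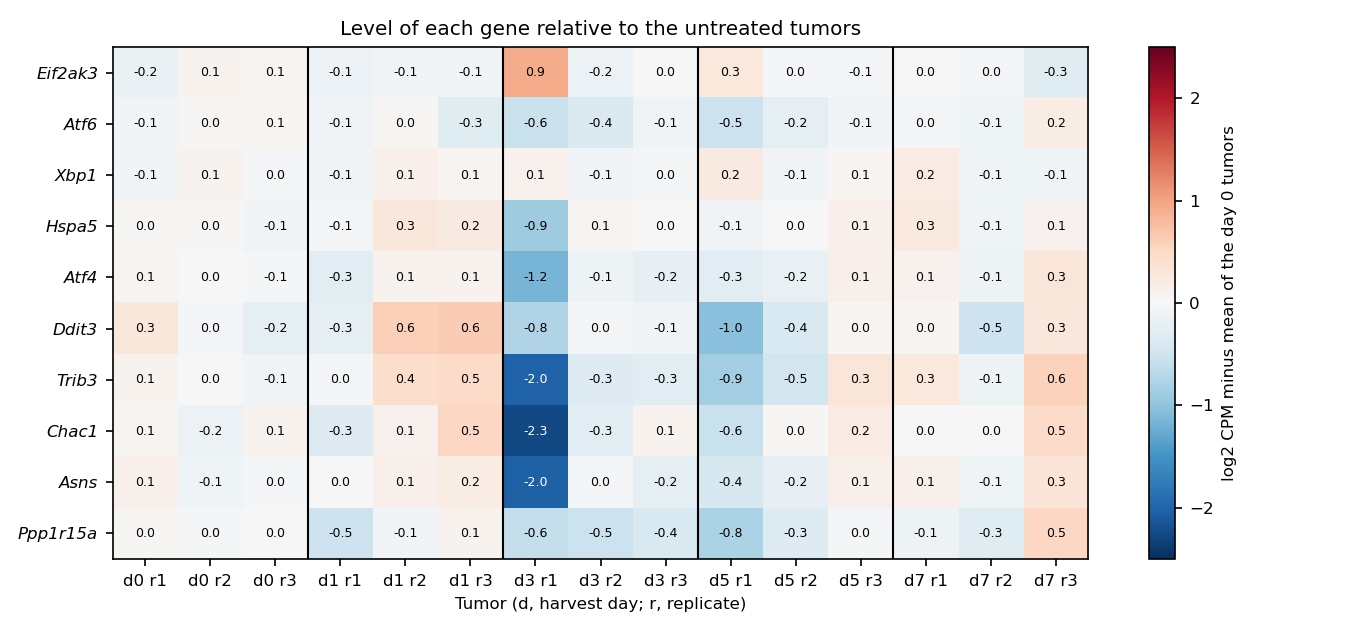
Difference of log2 CPM from the mean of the day 0 tumors (color and number in each cell) for the 10 genes in each of the 15 tumors, grouped by day. The column of day 3 replicate 1 reaches -2.3 for Chac1 and -2.0 for Trib3 and Asns, while the Xbp1 row runs no higher than 0.22, in day 5 replicate 1.

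Most of the 10 genes varied together between tumors. Spearman correlations of log2 CPM over the 15 tumors are given as a description; the tumors share their days and differ in marker sums, and day 3 replicate 1 weighs on them. Asns and Trib3 had a rho of 0.93, and among 15493 genes Trib3 ranked 1 in likeness to Asns, also over 14 tumors without day 3 replicate 1 (rho of 0.92). Hspa5 and Ddit3 had a rho of 0.90, with Ddit3 at rank 1 for Hspa5 over 15 tumors and at rank 2 over 14. Atf4 had a rho of 0.89 with Trib3, 0.87 with Asns, 0.84 with Ppp1r15a and 0.82 with Ddit3, and between 0.79 and 0.86 with these genes over 14 tumors. Chac1 was nearest to Ppp1r15a, with a rho of 0.81. Atf6 followed the others less closely, with rho values of 0.46 to 0.69 apart from Xbp1 and Eif2ak3, and 0.34 to 0.62 over 14 tumors. Trib3, the nearest of the 10 genes to Atf6 over 15 tumors, ranked only 2331 among 15493 genes in likeness to it.

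Xbp1 and Eif2ak3 did not share this pattern. Xbp1 had rho values between -0.20 and 0.25 with the other genes except Eif2ak3, with which it had 0.57. Over 14 tumors these were -0.07 to 0.41, the highest with Hspa5, and 0.54. Eif2ak3 had negative values with each of the remaining genes, from -0.29 with Atf6 to -0.70 with Asns, and from -0.12 to -0.63 over 14 tumors. Tumors that ranked high for this kinase gene thus tended to rank low for these remaining genes, most weakly for Atf6.

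**Figure D4:**
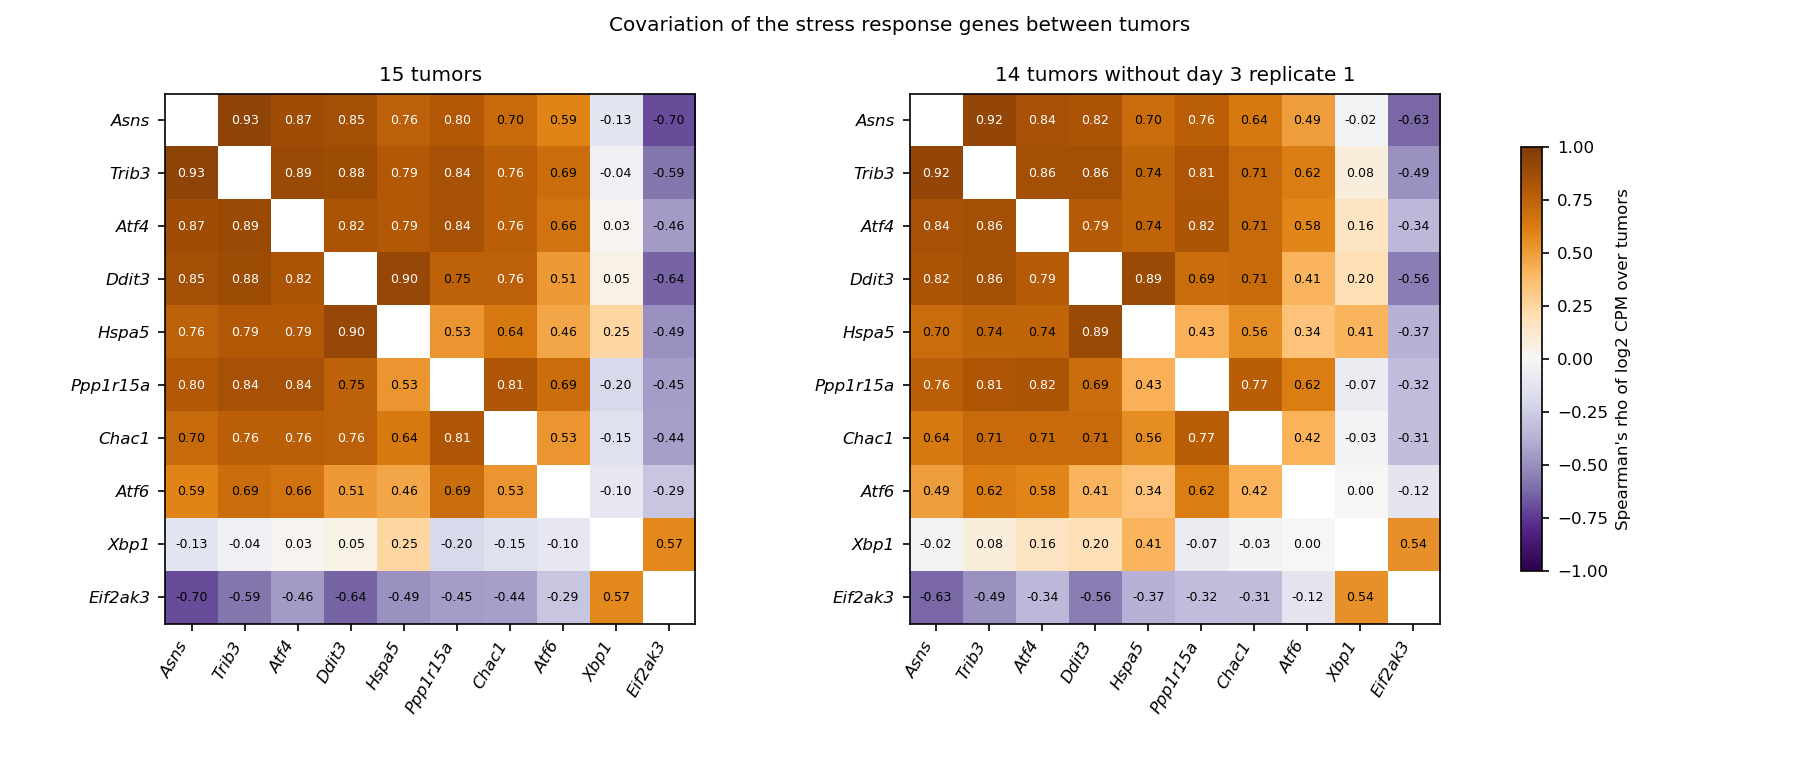
Spearman correlation of log2 CPM between each pair of the 10 genes (color and number), over 15 tumors at left and over 14 tumors without day 3 replicate 1 at right. The block from Asns to Chac1 is positive in both, between 0.53 and 0.93 over 15 tumors, and the Eif2ak3 column is negative except for Xbp1.

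Outside the 10 genes, the 3 genes with the most similar pattern over 15 tumors were named for each by rho. For Chac1 they were Gdf15 (0.90), Pck2 (0.86) and Acot2 (0.86), of which Gdf15 is a secreted stress cytokine and Pck2 the mitochondrial form of a gluconeogenic enzyme. For Atf4 they were the mitochondrial chaperone Hspa9 (0.95), Cryzl1 (0.94) and the ER oxidase Ero1l (0.94). For Ddit3 they were Zfand2a (0.95), the autophagy receptor Sqstm1 (0.93) and Zfas1 (0.92), and for Trib3 Soat2 (0.97), Rhbdd1 (0.95) and Ghitm (0.95). For Asns they were Fads3 (0.93), Rhbdd1 (0.92) and the mitochondrial protease Lonp1 (0.91), and for Ppp1r15a Fads3 (0.94), Bcar3 (0.91) and Stac2 (0.91). Hspa5 was nearest to Bloc1s6 (0.90), Emc7 (0.89) and Ing2 (0.89), Atf6 to Zfp113 (0.96), Tfdp2 (0.96) and 5730455P16Rik (0.96), and Xbp1 to Fam117a (0.90), Mr1 (0.88) and Tmed3 (0.86). Eif2ak3 was nearest to the matrix gene Aspn (0.96), Rp2 (0.92) and Rtn1 (0.92). Without day 3 replicate 1 the leading gene stayed the same for 9 of the 10, and for Hspa5 became Tmed4 (0.93).

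The wider pathway was described by 6 lists that hold none of the 10 genes. In each of them 0 genes were called by edgeR in any comparison. With all tumors, the tRNA synthetases and the ATF4 target genes of amino acid supply had the lowest medians on day 3. Of 20 tested ATF4 targets (Cbs did not pass the filter), 19 were below day 0 on day 3 and 1 was above (median log2 fold change -0.43). Without day 3 replicate 1, 15 were lower and the median was -0.08. Of the 20 tRNA synthetases, 19 were lower on day 3 (median -0.36), and 15 without that tumor (median -0.08). For day 7 against day 3 the medians of these lists were 0.50 and 0.41, or 0.14 and 0.15 without it. At an unadjusted p under 0.05 on day 3, 1 ATF4 target was higher and 2 lower with and without that tumor, and no tRNA synthetase was in either direction, against 30.0% of all genes (13.1% without it). With all tumors, 9 tRNA synthetases and 5 ATF4 targets were lower in all 3 tumors of day 3 than in all 3 of day 0, against 19.0% of all genes. In the other direction, 0 and 1 separated, against 3000 of 15494 genes. These separations of the lists were not counted without day 3 replicate 1.

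For the folding machinery the medians lay nearer to 0 with all tumors, but the difference between lists was not tested. Of the 24 ER chaperones and folding enzymes, 15 were lower on day 3 (median -0.09), and 10 without day 3 replicate 1 (median 0.05). Of the 19 genes of ER-associated degradation, 8 were lower and 11 higher (median 0.06, and 0.05 without that tumor). Of the 20 sensors and regulators of eIF2, 16 were lower (median -0.18), but 9 without it (median 0.02). Of the 24 stress transcription factors and effectors, 18 were lower with and without that tumor, with medians of -0.16 and -0.12, the latter the lowest of the 6 lists without it. At an unadjusted p under 0.05 on day 3, 2 chaperones were higher and 2 lower (1 and 1 without that tumor). The share of all genes was 30.0% (13.1% without it). For day 7 against day 3, 5 chaperones were higher and 3 lower by that measure (3 and 6 without it). The counts were 3 and 0 for ATF4 targets (2 and 0) and 5 and 0 for tRNA synthetases (0 and 0). They were 2 and 6 for ER-associated degradation (1 and 1) and 3 and 2 for sensors and regulators of eIF2 (1 and 1). Stress transcription factors and effectors had 3 and 3 (4 and 1). Of all genes, 35.5% passed in either direction (15.7% without that tumor).

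**Figure D5:**
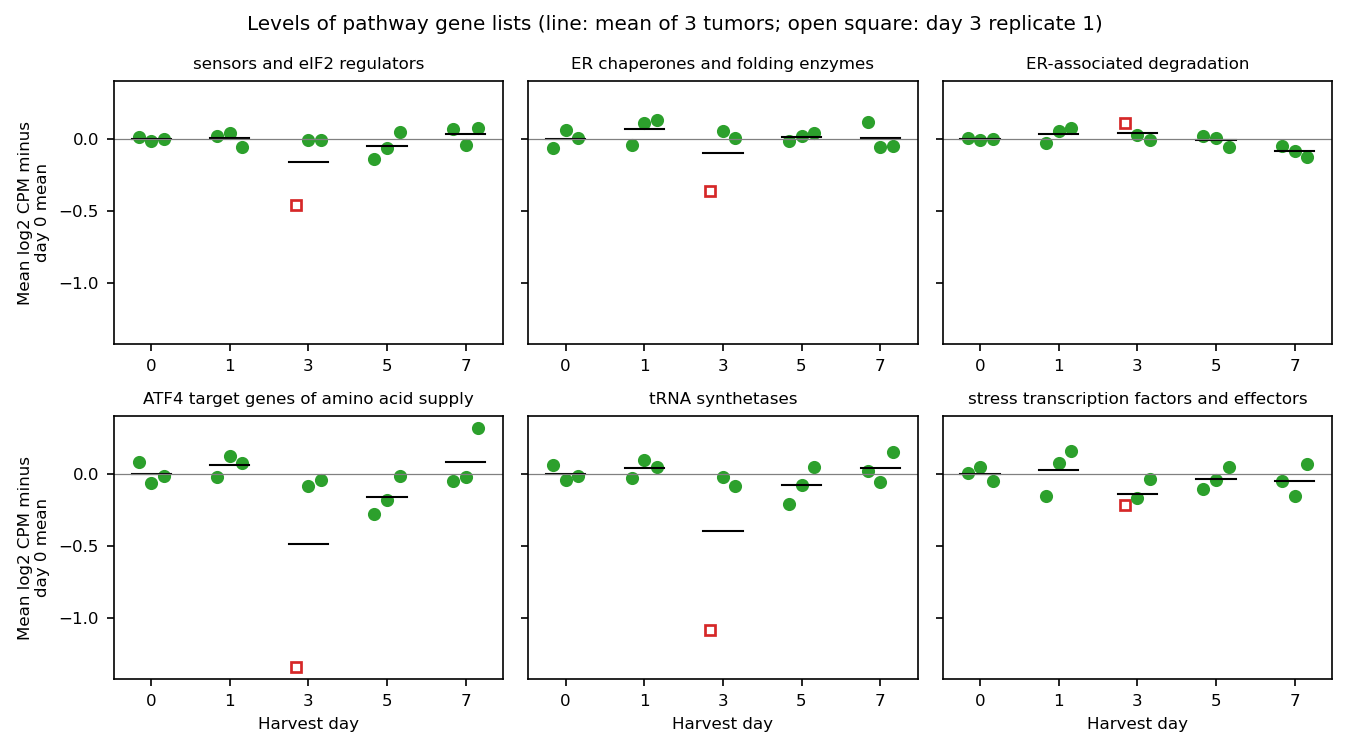
Mean over the genes of each list of log2 CPM minus its day 0 mean (vertical axis) by harvest day, with a point for each tumor, a line for the mean of 3 and an open square for day 3 replicate 1. That tumor lies at -1.34 for the ATF4 targets and -1.08 for the tRNA synthetases, while the other 14 tumors lie between -0.28 and 0.31 on these lists.

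The 3 genes of each list with the lowest p in the joint test were named, and each had an adjusted joint p of 0.292 or more. This choice, made on the same data, favours genes whose days differ, so separations among them add no evidence. Pmaip1 encodes the BH3-only protein NOXA. Its levels were 53.7, 48.6 and 47.9 CPM on day 0, 37.1, 34.3 and 38.1 CPM on day 1, 20.4, 25.3 and 32.2 CPM on day 3, 29.8, 31.7 and 32.7 CPM on day 5 and 34.2, 27.3 and 30.4 CPM on day 7. All 12 treated tumors were thus below the 3 untreated ones, and the share of all genes with this pattern was not counted. Log2 fold changes for days 1, 3, 5 and 7 were -0.46, -0.95 (-0.80 without day 3 replicate 1), -0.67 and -0.71, with edgeR adjusted p of 1, 0.115, 0.859 and 1.

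Eif2ak2, the gene of PKR, was at 94.8, 100.6 and 93.7 CPM on day 0, 139.8, 114.2 and 158.6 CPM on day 1 and 95.3, 143.5 and 114.0 CPM on day 3. All tumors of day 1 were above those of day 0, as in 892 of 15494 genes. For Eif2ak2, days 5 and 7 ranged from 86.7 to 104.6 CPM. Its log2 fold change was 0.51 on day 1 (edgeR adjusted p = 0.937) and 0.29 on day 3, or 0.42 without replicate 1. The other named regulators were Eif2b2, a subunit of the eIF2 exchange factor, at 0.22 on day 7 against day 0, and Mbtps2, a protease that cuts ATF6, at -0.38 on day 3 and -0.21 without replicate 1 (log2 fold changes).

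Bcl2l11, which encodes the BH3-only protein BIM, lay on the other side of day 0. It was at 24.7, 36.7 and 31.0 CPM on day 0 and 119.7, 52.8 and 52.4 CPM on day 3, with no overlap. Such a separation above day 0 was shown by 3000 of 15494 genes on day 3. The log2 fold change of Bcl2l11 was 1.28 on day 3 (edgeR adjusted p = 0.115), and 0.78 without replicate 1. Ddit4, an inhibitor of mTOR signaling, was at 29.9, 39.4 and 47.3 CPM on day 3 and 124.8, 57.9 and 112.7 CPM on day 7, with a log2 fold change of 1.34 between them (adjusted p = 0.0832) and 1.19 without replicate 1.

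Among the amino acid genes, Slc38a2, a neutral amino acid transporter, was at 447.5, 426.6 and 489.2 CPM on day 0 and 192.3, 313.8 and 378.1 CPM on day 3. Its log2 fold change was -0.62 (edgeR adjusted p = 0.115), and -0.39 without replicate 1. Pycr1, an enzyme of proline synthesis, was at 13.8, 13.0 and 13.7 CPM on day 0 and 7.8, 9.8 and 9.6 CPM on day 3, with log2 fold changes of -0.58 and -0.48 in the same order. Both genes were lower in all 3 tumors of day 3 than in all 3 of day 0, as were 19.0% of all genes. Cth, an enzyme of cysteine synthesis, was the single target above day 0, with a log2 fold change of 1.39 on day 3 (1.45 without replicate 1) at levels of 1.7 CPM or less. Of the tRNA synthetases, Sars and Lars were at log2 fold changes of -0.39 and -0.39 on day 3 (-0.17 and -0.11 without replicate 1). Wars was at 0.52 on day 1, with tumors at 93.4, 211.5 and 181.4 CPM beside 115.4, 112.7 and 110.7 CPM on day 0. Its lowest tumor of day 1 was thus below all untreated tumors.

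Of the ER genes named by the rule, Dnajb11, a BiP cochaperone, was at 86.6, 87.7 and 88.8 CPM on day 0. On day 3 it was at 113.2, 116.5 and 101.0 CPM, with no overlap, as in 3000 of 15494 genes. Its log2 fold change on day 3 was 0.33 (0.31 without replicate 1). Ero1lb was at 0.40 (0.29 without it) and Sec61b, a subunit of the ER translocon, at -0.22 (-0.16) on the same scale. Os9 and Sel1l, which recognise and retain misfolded proteins for degradation, were at 0.43 (0.17) and 0.17 (0.07), and Syvn1, the ubiquitin ligase of that route, at 0.25 on day 1 and 0.13 (0.12) on day 3. The genes named from these ER lists thus lay on both sides of day 0.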

How the data were processed

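RNA from 15 tumors was sequenced by the authors as 100 base single-end reads of poly(A) RNA. Per the labels, kallisto was run on GRCm38, the authors summed transcripts to genes, and the deposited values are whole-number estimated counts, each tumor in its own column. The transcript set and strand setting were not given in the sources used here. Kallisto divides shared reads among transcripts, so counts of near-identical genes are uncertain.

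The table held 32544 entries. A spreadsheet had turned 1 name into a date, which was left out (0.0268% of the counts or less). The study's filter, a low CPM minimum that 3 or more tumors had to exceed, left 15494 genes. Genes were tested mainly with edgeR 4.0.16 in R 4.3.3, with TMM factors, a single quasi-likelihood fit over the 15 tumors by harvest day, a two-sided F test and Benjamini-Hochberg adjustment over all genes tested, called at 0.05. The study lists DESeq2 without giving the test of the time course, so DESeq2 1.42.0 was an alternative. Both were also run on simulated data. These had a capped spread and no tumor that stood apart, so they do not cover a case like day 3 replicate 1. CPM uses TMM-scaled library sizes, and log2 CPM a prior count of 2. A count of 3, the limit that a count of 0 allows, was 0.094 to 0.127 CPM, for counting error only.

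The 10 genes, pathway lists and marker lists were chosen with earlier results of these data known, so no p was computed over a list. Named genes were the 10, the 3 of each pathway list with the lowest joint p and the 3 others most like each of the 10 by rho. Gene positions are those of GENCODE M21 on GRCm38, counted from 1. Ddit3 has 2 identifiers there, and the longest was used. Alternatives were size factors by RLE, no filter, the replicate number as a block, only the days compared, DESeq2, leaving out each tumor and, chosen after seeing the data, DESeq2 without day 3 replicate 1.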

Additional observations from a re-analysis of the deposited data

How the results depend on the processing

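None of the 10 genes changed its call in 750 values that leave out a tumor and 300 values under other settings. The count of genes called over the whole table moved. DESeq2 called 40, 2003, 11 and 5 genes on days 1, 3, 5 and 7, 3260 for day 7 against day 3 and 1176 jointly, and without day 3 replicate 1 it called 74, 86, 19, 15, 90 and 186 in the same order. Fitting only the days compared called 1 gene on day 5 and 1 on day 7. Leaving out a tumor gave 0 to 61 calls on day 3 and 0 to 2091 for day 7 against day 3, and the cause was not tested. The shared replicate number gave no sign of pairing: over 30 pairs with the same number the median correlation of their deviations was -0.0959, and 9 pairs were over 0.1. Over 60 pairs with different numbers the median was 0.0212, and 28 were over 0.1. Deviations from a mean of 3 tumors depend on each other, so these values cannot exclude pairing. With the replicate block 0 genes were called in each comparison, and the block changed no call.

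Some directions turned, among them those of Eif2ak3 (0.34) and Hspa5 (-0.22) on day 3. For Xbp1, the log2 fold change on day 3 was -0.010 without the filter and -0.050 by DESeq2 without day 3 replicate 1. On day 7 it was 0.0094 with RLE factors, 0.0031 without the filter, 0.014 with only the days compared, 0.0093 by DESeq2 and 0.00998 by DESeq2 without that tumor, and for day 7 against day 3 it was 0.013 without the filter and 0.060 by DESeq2 without that tumor. On day 3 DESeq2 without that tumor gave -0.070 for Eif2ak3 and 0.035 for Hspa5. Leaving out a tumor gave, on day 1, -0.083 to 0.096 for Atf4, -0.10 to 0.32 for Chac1, -0.015 to 0.090 for Xbp1 and -0.28 to 0.013 for Ppp1r15a. On day 3 it gave -0.069 to 0.54 for Eif2ak3, -0.38 to 0.037 for Hspa5 and -0.048 to 0.052 for Xbp1. On day 5 it gave -0.044 to 0.13 for Eif2ak3, -0.24 to 0.12 for Chac1, -0.052 to 0.054 for Hspa5 and -0.011 to 0.14 for Xbp1. On day 7 it gave -0.013 to 0.21 for Atf4, -0.081 to 0.068 for Atf6, -0.23 to 0.16 for Ddit3, -0.0097 to 0.26 for Chac1, -0.11 to 0.053 for Xbp1 and -0.21 to 0.23 for Ppp1r15a, and for day 7 against day 3 -0.12 to 0.059 for Xbp1. Depth did not limit the 10 genes, whose lowest level, 8.7 CPM for Chac1, was above the limit of 3 counts.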
